A study of Mus musculus with 15 samples.

Results

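The genes described here are 35 genes of the unfolded protein response and the integrated stress response, found by their symbols among the 45861 genes of an expression table of mouse liver. The list goes by gene function. By role they comprise 13 chaperones and folding factors of the endoplasmic reticulum (ER), 6 factors of ER-associated degradation, 3 ER stress sensors, 5 transcription factors and 8 targets of the integrated stress response. All 35 were found, and 33 of them reached at least 1 FPKM in at least 3 of the 15 livers, the level at which a gene was tested. FPKM, the unit of the table, is a level per length of transcript and per depth of library. Levels can be compared between livers only as far as the make-up of their RNA is alike, and results under other scalings are given below. Derl3 and Phgdh did not reach that level, and Psat1 reached it through ethanol livers only.

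The ER folds secreted and membrane proteins, and a hepatocyte, which exports most plasma proteins, holds a great deal of it. When unfolded proteins collect, the chaperone BiP, encoded by Hspa5, leaves the sensors IRE1 (Ern1), PERK (Eif2ak3) and ATF6. ATF6 is cut in the Golgi to release a transcription factor, IRE1 splices the mRNA of Xbp1, and PERK phosphorylates the initiation factor eIF2, which lowers protein synthesis at large and favours translation of ATF4. Other kinases of eIF2 answer amino acid lack, viral RNA and haem lack, and the shared branch through ATF4 to genes of amino acid synthesis, to CHOP (Ddit3) and to Trib3 is the integrated stress response. In liver these pathways are known from secretory load, fatty liver and alcohol feeding. ATF4 is regulated at translation, ATF6 by cleavage and XBP1 by splicing, none of which a gene's mRNA level shows.

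The livers came from C57BL/6 mice, either Fkbp5 knockout (KO) or wild type (WT), which were given the NIAAA model of ethanol feeding and binge or its control diet. Fkbp5 encodes a co-chaperone of HSP90. The KO ethanol group (4 livers) and the WT ethanol group (4 livers) were fed a liquid diet that reached 5% ethanol and was kept there for 10 days, and then received 5 g/kg ethanol by gavage. The KO control group (3 livers) and the WT control group (4 livers) had the control diet and a gavage of maltose. All livers were taken under isoflurane 9 h after the gavage, so that the anaesthetic, a gavage and the change of diet are shared by all groups. The labels give the knockout as Fkbp5-/- and name no cell type that it is limited to. The RNA is of whole snap-frozen liver, in which fewer cells of a type and less RNA per cell cannot be told apart. The age and sex of the mice are not in the labels.

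Some properties of the libraries bear on the values below. The files hold no read counts, and depth estimated from the steps of the low values was between 22400000 and 28200000 fragments. Fkbp5 stood at 2.45 to 5.41 FPKM in KO ethanol, 0.351 to 1.56 in KO control, 23.9 to 54.5 in WT ethanol and 3.27 to 15.2 in WT control livers. The labels contradict each other for 1 liver, WT ethanol replicate 4, whose title names a WT mouse and whose genotype entry names the KO. Its Fkbp5 level was 45.2 FPKM; it was placed by its title, and values without it are given beside the comparisons it enters. In KO control replicate 1 a signal recognition particle RNA, Rn7s1, took 183764 FPKM and was listed at 0 elsewhere. Xist exceeded 10 FPKM in 7 livers (1 of 4 KO ethanol, 2 of 3 KO control, 2 of 4 WT ethanol and 2 of 4 WT control), and the other 8 expressed Y-linked genes. All 10 hepatocyte markers reached 1 FPKM in each group, though Alb, the albumin gene, was listed at 0 in KO ethanol replicate 3. The 18 markers of pancreatic acinar cells summed to 4.15 to 10.6 FPKM in KO ethanol, 8.74 to 28.3 in KO control, 8.30 to 40.3 in WT ethanol and 51.6 to 145.9 in WT control livers, and none was at 0 throughout any group. The 11 Kupffer cell and macrophage markers, none of them at 0 throughout a group, summed to 45.4 to 204.8, 91.1 to 474.8, 79.1 to 171.5 and 134.2 to 279.4 FPKM in the same order of groups.

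Several of these genes are the textbook targets of ATF6, which binds the ER stress element together with the CCAAT-binding factor NF-Y. The element was searched on both strands as CCAAT, any 9 bases and then CCACG, in RefSeq windows (GRCm38.p6) from 250 bases before to 50 bases after the start of each gene. It occurred in 39 of 32851 windows (0.119%) and in 9 of the 31 members that had a window. The first count is of windows and the second of genes, which can have more than 1. The 9 were Hspa5, Hsp90b1 (which held it at 2 places), Calr, Canx, Pdia6, Dnajc3, Creld2, Derl3 and Syvn1. The windows of Atf6, Manf, Derl1 and Hyou1 were not analysed here. Matches from 6 of these genes are shown because the genes cover the range of behaviour described below. Over all livers Creld2 and Syvn1 followed Hspa5 closely and Canx followed it less closely. The capitals mark the parts searched for, and each line is written in the direction of the element.
Hspa5 (chr2:34772020-34772048, plus strand): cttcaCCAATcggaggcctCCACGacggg
Hsp90b1 (chr10:86705633-86705661, minus strand): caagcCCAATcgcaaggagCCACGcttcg
Calr (chr8:84847070-84847098, plus strand): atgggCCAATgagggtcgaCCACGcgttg
Canx (chr11:50325795-50325823, minus strand): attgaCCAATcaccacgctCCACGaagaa
Creld2 (chr15:88819515-88819543, minus strand): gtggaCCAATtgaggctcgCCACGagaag
Syvn1 (chr19:6046527-6046555, plus strand): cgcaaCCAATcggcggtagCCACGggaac
In Hspa5 the match lay 65 to 47 bases before the start, and in Syvn1 44 to 26 bases before it. The shorter unfolded protein response element, TGACGTGG, occurred in 222 windows (0.676%) and in 0 of the 31 members. The CEBP-ATF response element, through which ATF4 acts, was searched only in the form TGATGNAAT. That form occurred in 317 windows (0.965%) and in 1 member, Nupr1, shown because its stress-induced gene was the only one to hold these exact letters.
Nupr1 (chr7:126625568-126625586, plus strand): ctgtcTGATGCAATctggc
A match says only that these letters are in the window, and the lack of a match does not show that an element is absent. The Asns window, for example, holds TGATGAAAC, which differs from the searched form in its last base. Such variants were not counted.

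Levels per length differed widely between members. The files' positions, which match GRCm38, place Atf6 on chromosome 1 from 170704457 to 170867787, Xbp1 on chromosome 11 from 5520641 to 5525993, Atf4 on chromosome 15 from 80255184 to 80257545, Ddit3 on chromosome 10 from 127290793 to 127296291, Hspa5 on chromosome 2 from 34772090 to 34776529, Trib3 on chromosome 2 from 152337425 to 152344060 and Asns on chromosome 6 from 7675165 to 7693182. The ER lumen chaperones stood highest, with Calr at 177 ± 63.0, Hsp90b1 (GRP94) at 166 ± 46.1 and Hspa5 at 151.7 ± 68.4 FPKM over all livers (SD, n = 15), and these 3 did not differ beyond their spread. Next came Atf5, a transcription factor of the ATF4 family that is abundant in liver, at 110.6 ± 32.3 FPKM, and Herpud1, which organises the degradation complex of the ER membrane, at 98.0 ± 30.1 FPKM. The sensors were low, at 11.4 ± 2.81 FPKM for Atf6, 11.1 ± 2.96 for Ern1 and 4.40 ± 1.71 for Eif2ak3. The targets of the integrated stress response were low too, from 5.01 ± 4.91 FPKM for Asns to 1.01 ± 1.41 for Psat1 among those tested, and 0.130 ± 0.0805 for Phgdh, which was not tested (SD, n = 15 each). Phgdh and Psat1 encode consecutive enzymes of serine synthesis. Derl3, of the derlin family of ER membrane proteins, exceeded 1 FPKM only in WT ethanol replicate 2 (4.17 FPKM) and WT control replicate 4 (2.30 FPKM).

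**Figure D1:**
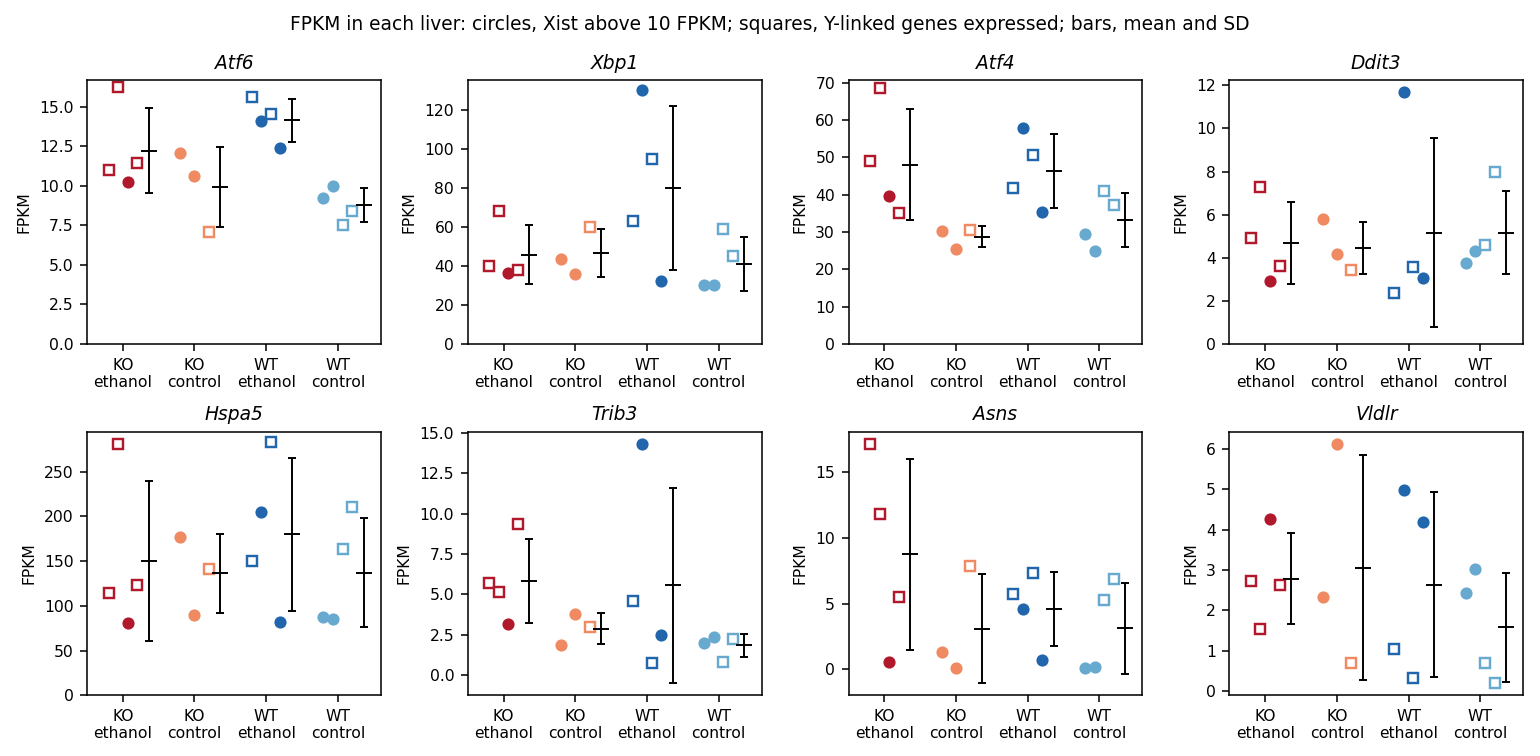
Level (FPKM, vertical axis) of 8 genes in each liver of the 4 groups, with filled circles for livers above 10 FPKM of Xist, open squares for livers that express Y-linked genes, and bars for the mean and SD. WT ethanol and WT control livers do not overlap for Atf6, and WT ethanol replicate 2 is the highest liver for both Ddit3 and Trib3.

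The comparison of ethanol with control livers in WT mice asks what the feeding and binge did to this response. Of 33 members tested, 1 was called higher (Atf6), 0 lower and 32 were not called at a limma adjusted p under 0.05. That is 3.03% of the members, against 7.7% of all 13840 genes tested. At an unadjusted p under 0.05 there were 5 members (15.2%), against 25.8% of all genes. Of the 5, Psat1 passed the filter on low values only through ethanol livers, so that its direction was set by the filter; leaving it out, there were 4 of 32 (12.5%), with Atf6, Xbp1 and Atf4 higher and Ern1 lower. The median log2 difference of FPKM + 1 was 0.22 over the 33 members and -0.036 over all genes. Acinar markers moved with this comparison, since 17 of 17 tested were called lower in WT ethanol livers and their summed levels did not overlap; their part in the members' values was not tested.

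In KO mice the same comparison called 0 of 33 members with limma, against 4.13% of all genes. At an unadjusted p under 0.05 there were 2 members (6.06%), Atf4 higher and Canx lower, against 21.7% of all genes, and 7 (21.2%) without WT ethanol replicate 4, against 22.4% of all genes. The median log2 difference was 0.048 over the members and -0.095 over all genes. Canx was called without WT control replicate 4, without WT ethanol replicate 3 or without WT ethanol replicate 4, none of which is a KO liver (limma adjusted p = 0.0457, 0.0487 and 0.0492).

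**Figure D2:**
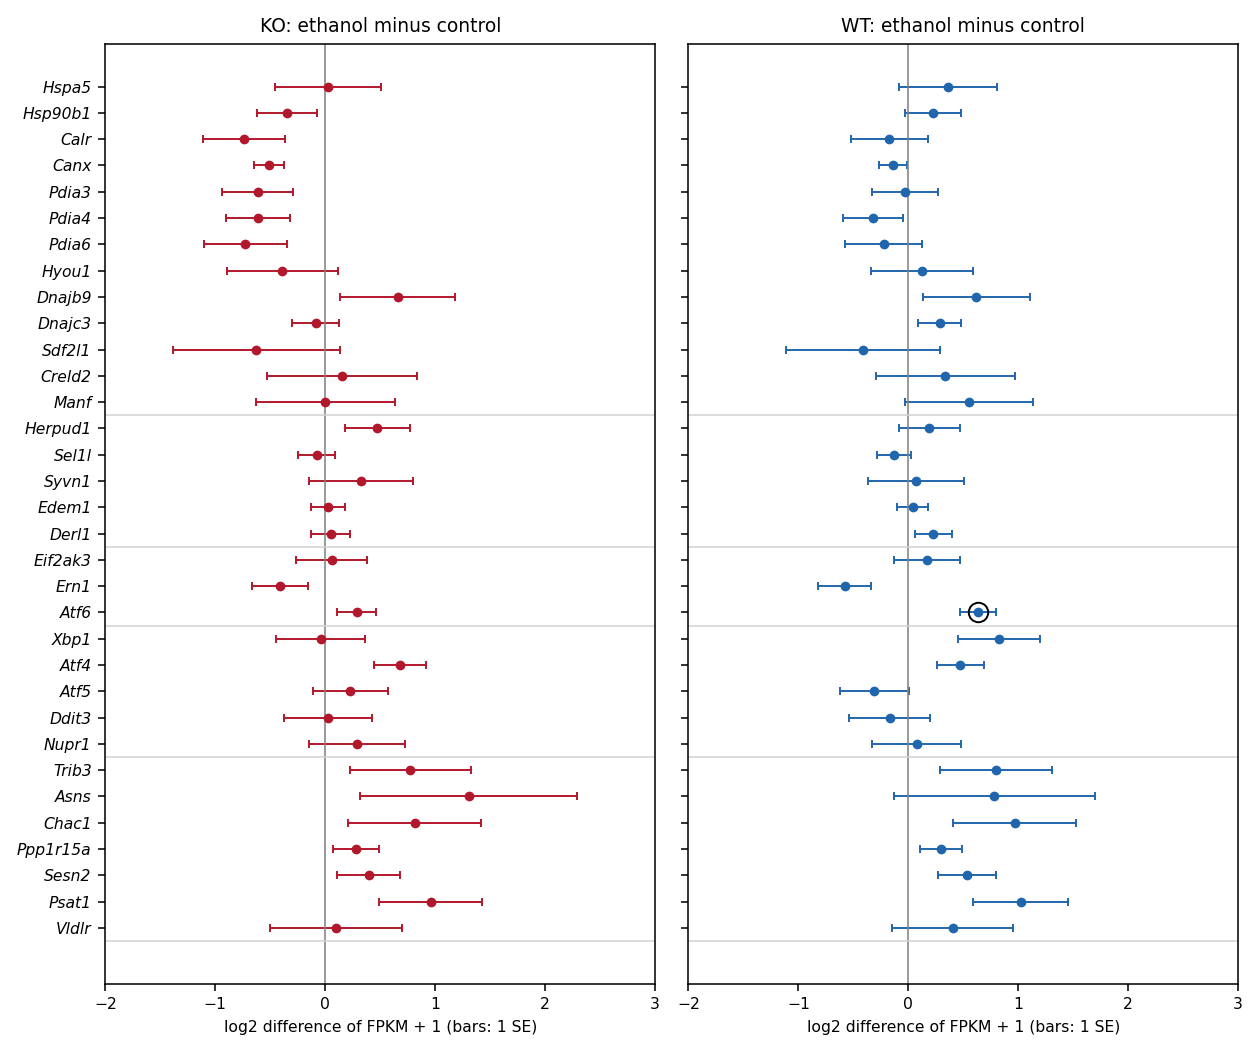
Log2 difference of FPKM + 1 between ethanol and control livers (horizontal axis) for each of the 33 tested genes, ordered by role down the page, in KO mice on the left and WT mice on the right; bars are 1 SE. The circled point, Atf6 in WT mice at 0.63, is the only one called, and the 7 targets of the integrated stress response at the bottom lie above 0 in both panels, among them Psat1, which the filter on low values required to be high in ethanol livers.

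Among the sensors, Atf6 rose in WT ethanol livers. It stood at 11.0, 16.2, 10.3 and 11.4 FPKM in KO ethanol livers, 12.1, 10.6 and 7.10 in KO control livers, 15.6, 14.1, 14.6 and 12.4 in WT ethanol livers and 9.20, 10.0, 7.52 and 8.42 in WT control livers. The 2 WT groups did not overlap, while the KO groups did. The means were 14.1 ± 1.35 FPKM in WT ethanol and 8.79 ± 1.06 in WT control livers (SD, n = 4 each), a log2 difference of 0.63 with an SE of 0.16 and a limma adjusted p of 0.0343, higher in 4 of 4 livers. In KO mice the means were 12.2 ± 2.70 FPKM in ethanol (SD, n = 4) and 9.92 ± 2.55 in control livers (SD, n = 3), with a log2 difference of 0.28, an SE of 0.18 and a limma adjusted p of 0.369. The difference between the genotypes in this ethanol effect was -0.35 with an SE of 0.24 (limma adjusted p = 1.00), so that a rise particular to WT mice was not shown. The call in WT did not hold without WT control replicate 1, 2, 3 or 4 (limma adjusted p = 0.0684, 0.0582, 0.0810 and 0.0787) or without WT ethanol replicate 1, 2 or 3 (0.0910, 0.0618 and 0.0734), and it held without replicate 4 (0.0257). Over all alternatives its adjusted p ran from 0.0195 to 0.0910, and its log2 difference from 0.47 to 0.71.

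Ern1, the sensor that splices Xbp1, had negative differences in both genotypes. It stood at 10.5, 10.9, 12.0 and 6.27 FPKM in KO ethanol livers, 15.7, 11.2 and 13.0 in KO control livers, 6.84, 12.9, 5.10 and 10.6 in WT ethanol livers and 12.6, 12.4, 13.6 and 13.5 in WT control livers. All 4 WT ethanol livers lay below the WT control mean, though the groups overlapped, with a log2 difference of -0.58 (SE 0.24, limma adjusted p = 0.145). In KO mice it was -0.41 (SE 0.26, limma adjusted p = 0.375). Eif2ak3, the sensor kinase of eIF2, ranged from 2.87 to 5.89 FPKM in KO ethanol, 3.05 to 5.98 in KO control, 2.97 to 8.71 in WT ethanol and 2.82 to 6.46 in WT control livers, with log2 differences for ethanol of 0.059 in KO and 0.17 in WT mice. No change of either gene passed the test.

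Among the transcription factors, Xbp1 and Atf4 had the highest differences for ethanol in WT mice. Xbp1, whose product drives chaperones, degradation factors and the growth of the ER, stood at 40.0, 68.5, 36.5 and 38.1 FPKM in KO ethanol livers, 43.6, 35.9 and 59.9 in KO control livers, 63.3, 130.2, 95.0 and 32.1 in WT ethanol livers and 30.3, 30.2, 59.2 and 45.2 in WT control livers. WT ethanol replicate 2 was the highest of all 15 livers, WT ethanol replicate 4 was near the lowest, and the WT groups overlapped. Its log2 difference in WT was 0.82 (SE 0.38, limma adjusted p = 0.186), and -0.040 (SE 0.41) in KO mice. Without WT ethanol replicate 4, Xbp1 was 1.20 in WT mice and passed the test (limma adjusted p = 0.0284), and its adjusted p over all alternatives ran from 0.0252 to 0.395. The interaction of genotype and diet for Xbp1 was -0.86 (SE 0.55, limma adjusted p = 1.00), and -1.24 without that liver (SE 0.44, limma adjusted p = 0.667).

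Atf4, the factor at the centre of the integrated stress response, stood at 49.0, 68.5, 39.5 and 35.2 FPKM in KO ethanol livers, 30.4, 25.4 and 30.5 in KO control livers, 41.7, 58.0, 50.6 and 35.4 in WT ethanol livers and 29.4, 25.0, 40.9 and 37.4 in WT control livers. KO ethanol and KO control livers did not overlap, and WT ethanol and WT control livers did. The log2 difference for ethanol was 0.68 in KO mice (SE 0.23, limma adjusted p = 0.116) and 0.47 in WT mice (SE 0.22, limma adjusted p = 0.188), with 4 of 4 ethanol livers above the control mean in each genotype. With all libraries rescaled to a common sum, which lowers all other values of KO control replicate 1 because of its Rn7s1, it was 1.02 in KO mice and passed (limma adjusted p = 0.0279); over all alternatives the adjusted p in KO ran from 0.00301 to 0.299.

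Ddit3 encodes CHOP, which links lasting ER stress to cell death. It stood at 4.93, 7.28, 2.93 and 3.61 FPKM in KO ethanol livers, 5.78, 4.18 and 3.42 in KO control livers, 2.35, 11.7, 3.58 and 3.05 in WT ethanol livers and 3.76, 4.29, 4.57 and 7.99 in WT control livers. WT ethanol replicate 2, at 11.7 FPKM, was the highest of all livers, and the other 3 of its group lay below the WT control mean. The log2 difference was 0.024 in KO mice (SE 0.40) and -0.17 in WT mice (SE 0.37), with limma adjusted p of 0.979 and 0.804. Atf5 was at 0.23 in KO and -0.31 in WT mice, and Nupr1, a small chromatin protein induced by stress, at 0.29 and 0.077, with no change that passed. Nupr1 ranged from 0.452 to 2.47 FPKM in KO ethanol and 0 to 2.46 in KO control livers, and from 1.31 to 5.27 in WT ethanol and 1.46 to 2.53 in WT control livers.

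No target of the integrated stress response passed the test in either genotype. Psat1 is left out of the counts that follow, since its direction was set by the filter. In KO mice the other 6 tested had positive log2 differences, from 0.098 (Vldlr) to 1.30 (Asns) with a median of 0.58, and 0 reached an unadjusted p under 0.05. In WT mice the 6 were again positive, from 0.30 (Ppp1r15a) to 0.97 (Chac1) with a median of 0.66, and 0 reached an unadjusted p under 0.05. Ddit3, also on the branch through ATF4, is not among the 6. It is counted with the transcription factors and was at 0.024 in KO and -0.17 in WT mice. Among all genes tested 36.8% were above 0 in KO and 45.2% in WT mice. The sizes moved with the pseudocount and with single livers. With a pseudocount of 5 the medians were 0.29 in KO and 0.29 in WT mice, and without WT ethanol replicate 2 the median in WT mice was 0.28. All 6 stayed positive in WT mice under every alternative run, and in KO mice 5 of 6 did with a pseudocount of 5, with library weights, without KO control replicate 3 or without KO ethanol replicate 3. The comparisons in KO and in WT mice share no liver. Within each comparison the 6 were measured in the same livers, so these counts are not of separate observations.

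Trib3, a pseudokinase that restrains AKT and ATF4, stood at 5.71, 5.12, 3.12 and 9.34 FPKM in KO ethanol livers, 1.87, 3.78 and 2.95 in KO control livers, 4.60, 14.3, 0.762 and 2.47 in WT ethanol livers and 1.95, 2.33, 0.793 and 2.24 in WT control livers. A single liver, WT ethanol replicate 2, was highest, and WT ethanol replicate 3 was the lowest of all 15. The log2 difference was 0.77 in KO mice (SE 0.55, limma adjusted p = 0.442, 4 of 4 ethanol livers above the control mean) and 0.80 in WT mice (SE 0.51, limma adjusted p = 0.341, 3 of 4 above).

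Asns encodes asparagine synthetase, the classic gene induced through ATF4 when amino acids run short. It stood at 17.2, 11.9, 0.556 and 5.47 FPKM in KO ethanol livers, 1.27, 0.119 and 7.85 in KO control livers, 5.69, 4.62, 7.33 and 0.713 in WT ethanol livers and 0.0717, 0.162, 5.29 and 6.86 in WT control livers. It ranged from 0.0717 FPKM, about 4 fragments, to 17.2 FPKM, about 892 fragments, and all 4 groups overlapped. The log2 difference was 1.30 in KO mice (SE 0.99, limma adjusted p = 0.474) and 0.78 in WT mice (SE 0.91, limma adjusted p = 0.621). With a term for Xist it was 0.36 in KO mice (SE 0.49), whose ethanol group has 1 of 4 Xist-high livers and whose control group has 2 of 3, and 0.78 in WT mice (SE 0.44).

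Psat1, which makes phosphoserine, stood at 1.65, 4.04, 0.340 and 0.479 FPKM in KO ethanol livers, 0.340, 0.0585 and 0.123 in KO control livers, 1.45, 4.44, 1.22 and 0.181 in WT ethanol livers and 0.105, 0.142, 0.218 and 0.340 in WT control livers. Control livers of both genotypes lay between 0.0585 and 0.340 FPKM, about 3 to 20 fragments. The lowest KO ethanol liver, replicate 3, equalled the highest KO control liver to the third digit, and WT ethanol replicate 4 lay within the WT control range. The log2 difference was 0.96 in KO mice (SE 0.47, limma adjusted p = 0.254) and 1.02 in WT mice (SE 0.43, limma adjusted p = 0.159), and it understates the change of so low a gene. Because Psat1 passed the filter on low values through ethanol livers alone, its place among the tested genes already required it to be higher there. Chac1, a glutathione-degrading enzyme induced by ATF4, was at 0.81 and 0.97 in KO and WT mice, and Sesn2, a stress-induced inhibitor of mTORC1, at 0.39 and 0.53. Ppp1r15a, which brings a phosphatase to eIF2 and so ends the response, was at 0.28 and 0.30, and the lipoprotein receptor Vldlr at 0.098 and 0.40. Without WT ethanol replicate 4 Xbp1 and Chac1 (1.57, limma adjusted p = 0.0350) were called in WT mice beside Atf6, and so was Psat1 (1.37), whose call the filter favours. That made 4 of 33 members (12.1%), or 3 of 32 without Psat1, against 12.9% of all genes in that fit. Over all alternatives the adjusted p of Chac1 in WT mice ran from 0.0350 to 0.565.

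The ER chaperones had no called change with ethanol. Hspa5, the master chaperone and the standard marker of the unfolded protein response, stood at 115, 281, 80.3 and 123 FPKM in KO ethanol livers, 177, 90.0 and 141 in KO control livers, 150.0, 204, 283 and 81.9 in WT ethanol livers and 88.1, 85.7, 163 and 210.3 in WT control livers. The lowest liver of a group lay between 80.3 and 90.0 FPKM and the highest between 177 and 283 FPKM, and all 4 groups overlapped. The log2 difference was 0.028 in KO mice (SE 0.48) and 0.36 in WT mice (SE 0.45), with limma adjusted p of 0.979 and 0.642.

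Of the 13 chaperones, 10 had a negative difference in KO mice, with a median of -0.39, and 6 in WT mice, where the median was 0.12. The lectin chaperones Canx and Calr and the disulfide isomerases Pdia3, Pdia4 and Pdia6, which work together on glycoproteins and disulfide bonds, were at -0.51, -0.74, -0.61, -0.61 and -0.73 in KO mice. In WT mice they were at -0.14, -0.17, -0.030, -0.32 and -0.22. Dnajb9, a co-chaperone of BiP induced through IRE1, was at 0.66 in KO and 0.62 in WT mice. Hsp90b1, the HSP90 of the ER, was at -0.35 and 0.22 in KO and WT mice, and the BiP partners Hyou1, Dnajc3 and Sdf2l1 were at -0.39, -0.088 and -0.63 in KO and 0.12, 0.29 and -0.41 in WT mice. Manf and Creld2, which are secreted in part, were at -0.0015 and 0.15 in KO and 0.55 and 0.34 in WT mice. The chaperones vary together from liver to liver, so these counts are not of separate observations. The counts moved with single livers and with the scaling. In KO mice 8 were negative without KO control replicate 1 (median -0.17) and 12 without KO ethanol replicate 2 (-0.57), and 8 or 9 under the 3 other scalings, with a median of -0.052 under a common sum. In WT mice 8 were negative without WT ethanol replicate 3 (median -0.12) and 2 without WT ethanol replicate 4 (0.34).

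Canx came closest to a call in KO mice. It stood at 52.8, 56.6, 46.3 and 51.0 FPKM in KO ethanol livers, 85.3, 69.1 and 68.8 in KO control livers, 65.0, 63.1, 56.9 and 53.7 in WT ethanol livers and 56.0, 60.6, 68.4 and 79.3 in WT control livers. KO ethanol livers all lay below KO control livers, and the WT groups overlapped. The means were 51.7 ± 4.25 FPKM in KO ethanol (SD, n = 4) and 74.4 ± 9.47 in KO control livers (SD, n = 3), with a log2 difference of -0.51, an SE of 0.14 and a limma adjusted p of 0.0514. The values ran from -0.57 to -0.17 over the alternatives, and the adjusted p from 0.00714 to 0.577. The KO control liver with the highest Canx, replicate 1, is also the one with the Rn7s1 signal and a Kupffer cell marker sum of 474.8 FPKM; without it the log2 difference was -0.41 (limma adjusted p = 0.176).

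No degradation factor was called. Sel1l and Syvn1 form the core ubiquitin ligase that passes misfolded proteins out of the ER, Edem1 picks out glycoproteins for it, and Derl1 sits in the channel. Of the 5 tested, 4 were positive in each genotype, with medians of 0.048 in KO and 0.070 in WT mice. In KO mice only 1 was positive without KO ethanol replicate 2 (median -0.054) and with a term for Xist (median -0.027), and without WT ethanol replicate 3 only 2 were in WT mice (median -0.069). With a common sum 2 were positive in WT mice (median -0.039). Herpud1 had the highest value in KO mice, 0.48 (SE 0.30, limma adjusted p = 0.375), and Derl1 in WT mice, 0.23 (SE 0.17, limma adjusted p = 0.413). Edem1 ranged from 23.7 to 38.2 FPKM over all 15 livers, and its ratio of highest to lowest liver, 1.61, was the smallest among the members.

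**Figure D3:**
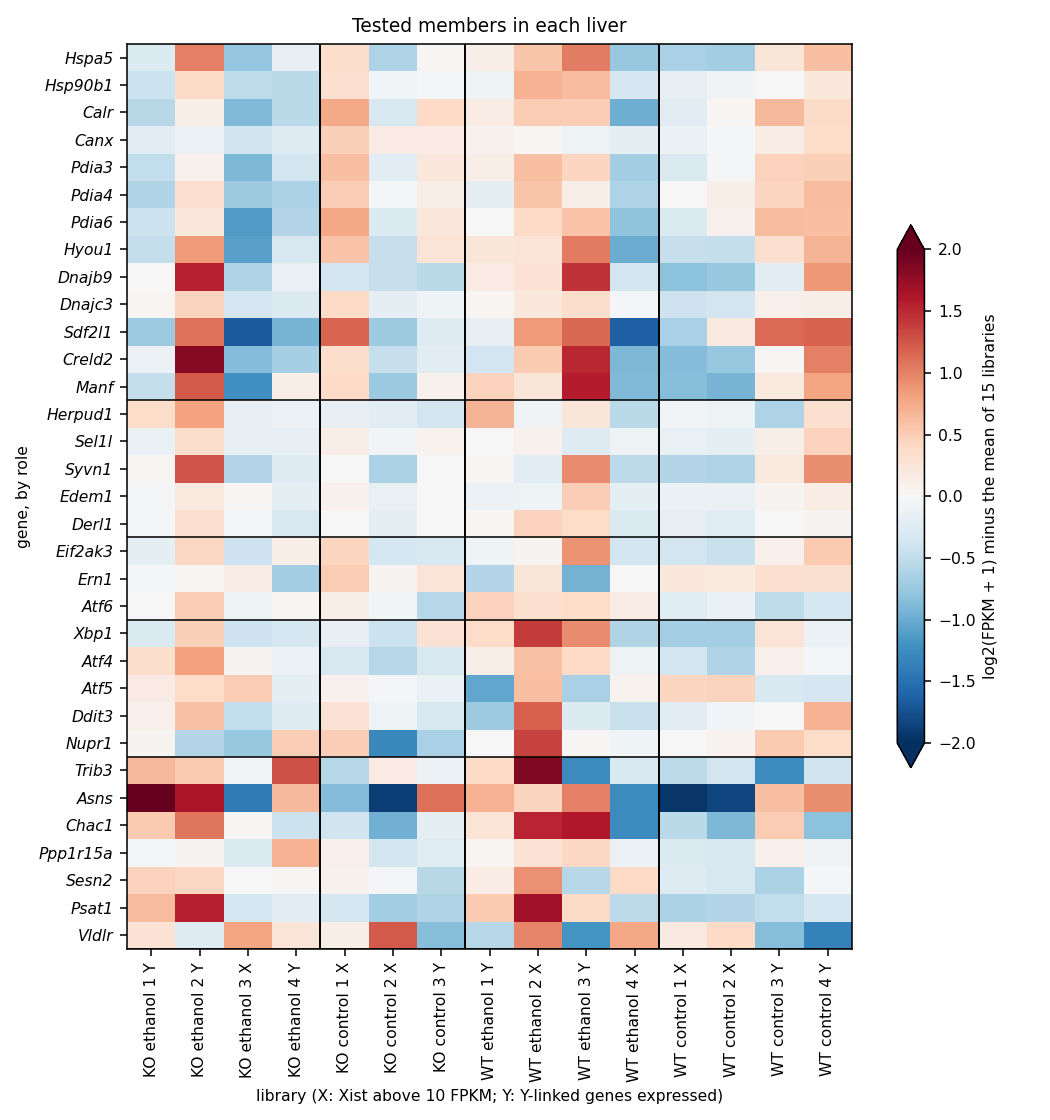
Level of each tested gene (rows, ordered by role) in each liver (columns, by group; X and Y mark Xist-high and Y-expressing livers), as log2(FPKM + 1) minus its mean over 15 livers. Most chaperones lie above their mean in KO ethanol replicate 2 and WT ethanol replicate 3 and below it in KO ethanol replicate 3 and WT ethanol replicate 4.

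No member was called between KO and WT livers on either diet. On the control diet 0 of 33 members were called between KO and WT livers with limma, against 0.181% of all genes, and 0 had an unadjusted p under 0.05, against 4.23%. The members' median was 0.010 and that of all genes 0.031. Of 17 acinar markers tested, 10 were called lower in KO control livers, and their part in these values was not tested. The largest differences were -0.72 for Nupr1 (SE 0.44) and 0.58 for Vldlr (SE 0.60).

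On the ethanol diet again 0 of 33 were called between KO and WT livers, against 0.101% of all genes, and 0 had an unadjusted p under 0.05, against 5%. That second count moved with single livers: at an unadjusted p under 0.05 there were 5 of 33 members (15.2%) without WT ethanol replicate 4, against 9.15% of all genes, 5 without KO ethanol replicate 2, against 6.46%, and 4 with a term for Xist, against 6.53%. With WT ethanol replicate 4 placed with the KO ethanol livers, as its genotype entry has it, there were 10 (30.3%), against 11.7%. Its Fkbp5 level, 45.2 FPKM, lay above the 2.45 to 5.41 FPKM of the KO ethanol livers. No member was called in any of these fits. All 13 chaperones had negative log2 differences between KO ethanol and WT ethanol livers, which ran from -0.61 (Sdf2l1) to -0.15 (Creld2) with a median of -0.40. Of all genes 46.1% were above 0. The chaperones vary together from liver to liver (median r of the 12 others with Hspa5, 0.82), so this count is not one of 13 separate observations. The smallest unadjusted limma p among the 13 chaperones was 0.0724, for Hsp90b1 (log2 difference -0.49, SE 0.25). Without WT ethanol replicate 3, a liver with high chaperone levels, 11 of 13 were negative with a median of -0.22, and without KO ethanol replicate 2 all 13 were, with a median of -0.70. Without WT ethanol replicate 4 all 13 were, with a median of -0.68, and with that liver placed with KO ethanol the median was -0.76. All 13 were negative under the 3 other scalings too. Xbp1 was at -0.67 (SE 0.38), with 4 of 4 KO ethanol livers below the WT ethanol mean. Where the ethanol effects of the genotypes were set against each other, 0 of 33 members were called, against 0% of all genes, and 0 had an unadjusted p under 0.05, against 4%. Without WT ethanol replicate 4 there were 5 of 33 at an unadjusted p under 0.05 (15.2%), against 5.90% of all genes, and again 0 called. The interaction was negative for 12 of 13 chaperones, while 41.1% of all genes were above 0. The chaperones' median was -0.38 (all 13 negative and -0.76 without WT ethanol replicate 4), and the standard errors of their interactions ran from 0.19 (Canx) to 1.03 (Sdf2l1). The sign of that median depended on the scaling: with all libraries rescaled to a common sum it was 0.078, with 6 of 13 negative, while the median of all genes was 0.31 there and -0.046 in the fit as reported. Under median-ratio scaling and quantile normalization 12 of 13 stayed negative.

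IRE1 activity leaves a trace in the RNA itself, since it cuts 26 bases out of the Xbp1 mRNA and so shifts the reading frame towards the active factor. The bases are shown because the deposited isoforms of Xbp1 differ by their length. They lie at positions 815 to 840 of the GENCODE transcript Xbp1-201, on chromosome 11, and stand in capitals between their flanks.
Xbp1-201: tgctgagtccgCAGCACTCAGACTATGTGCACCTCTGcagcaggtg
The isoform table holds 2 isoforms of Xbp1, of 2247 and 2221 bases, a difference of 26. It gives lengths and no sequences, so that the shorter isoform was matched to the spliced form by length alone, and how the aligner treated so short a gap is not given in the sources used here. The shorter isoform made up 23.7, 53.7, 50.0 and 39.1% of Xbp1 FPKM in KO ethanol livers, 38.2, 27.0 and 24.4% in KO control livers, 44.1, 42.3, 36.2 and 20.6% in WT ethanol livers and 31.6, 25.0, 32.4 and 35.0% in WT control livers. All 4 groups overlapped. Both the highest share and the lowest of the KO mice lay in the ethanol group, and the lowest of all in WT ethanol replicate 4.

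The share averaged 41.6% ± 13.5 in KO ethanol (SD, n = 4) and 29.9% ± 7.30 in KO control livers (SD, n = 3), a difference of 11.8 percentage points (exact permutation p = 0.286, 2-sided; the smallest possible with these groups is 0.0571). In WT mice it averaged 35.8% ± 10.7 in ethanol and 31.0% ± 4.23 in control livers (SD, n = 4 each), a difference of 4.78 points (exact permutation p = 0.429; the smallest possible is 0.0286). Between KO and WT livers it differed by 5.85 points on the ethanol diet (exact permutation p = 0.543) and by -1.15 points on the control diet (exact permutation p = 0.800). After Benjamini-Hochberg adjustment over the 4 comparisons every p was at least 0.724. The shares are estimates of the authors' software without an error of their own.

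**Figure D4:**
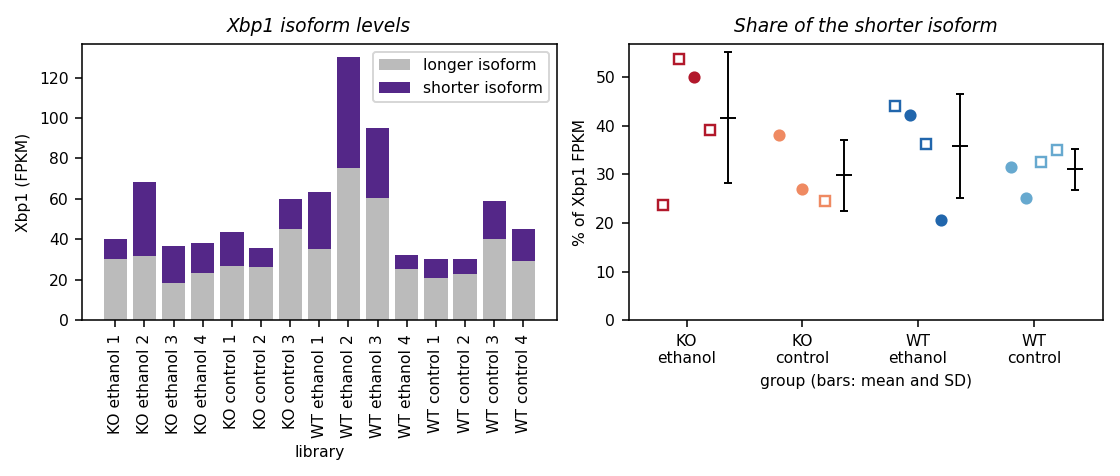
Left, FPKM of the longer and the shorter Xbp1 isoform stacked in each of the 15 livers; right, the shorter isoform as a percentage of Xbp1 FPKM by group, with bars for the mean and SD and circles and squares for Xist-high and Y-expressing livers. The share runs from 20.6% to 53.7%, and all 4 groups overlap.

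Many members varied with Hspa5 from liver to liver. Over the 15 livers, on log2(FPKM + 1), 14 of the 32 other members tested were positively correlated with Hspa5 at a permutation p adjusted over all 13839 genes under 0.05, against 2.24% of all genes; 0 members were negatively correlated at that level. The median Pearson r was 0.70 over the members and -0.066 over all genes. The highest were Manf, a secreted ER stress protein (r = 0.97, Spearman rho 0.97), Hyou1, the exchange factor of BiP (r = 0.95, rho 0.96), and Creld2, an ER stress protein with isomerase activity (r = 0.94, rho 0.96). For each of these the permutation p was 1e-05, the smallest that the permutations can give, and the adjusted p 0.00374. By Spearman's rho the adjusted p was 0.00923 for Manf and Hyou1 and 0.00988 for Creld2.

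By role, 9 of 12 other chaperones, 3 of 5 degradation factors, 1 of 3 sensors, 1 of 5 transcription factors and 0 of 7 targets of the integrated stress response were among the 14. The sensor was Eif2ak3 (r = 0.90), and the transcription factor was Xbp1 (r = 0.80). Syvn1 (r = 0.90), Dnajb9 (0.86), Dnajc3 (0.86), Sdf2l1 (0.85), Derl1 (0.82), Hsp90b1 (0.80), Pdia3 (0.78), Pdia6 (0.76) and Edem1 (0.75) made up the rest. By Spearman's rho the adjusted p of Pdia6 and Edem1 was 0.0572 and 0.0984. Calr and Atf4 did not pass, at r = 0.73 (permutation p = 0.00269, adjusted 0.0607) and 0.67 (permutation p = 0.00671, adjusted 0.0955). Ern1 (-0.20), Atf5 (-0.33), Trib3 (-0.011) and Vldlr (-0.63) lay below 0, and the permutation p of Vldlr was 0.0133 (adjusted 0.131). For the 7 other tested members with an ER stress element in their window, r was 0.94 for Creld2, 0.90 for Syvn1, 0.86 for Dnajc3, 0.80 for Hsp90b1, 0.76 for Pdia6, 0.73 for Calr and 0.37 for Canx. For tested members whose window held no match, r ran from -0.63 (Vldlr) to 0.90 (Eif2ak3). Whether a match goes with a higher r was not tested.

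The farthest livers were WT ethanol replicate 3 (283 FPKM of Hspa5) and KO ethanol replicate 2 (281 FPKM). Without them r stayed at 0.95 for Manf, 0.93 for Hyou1 and 0.91 for Creld2 over 13 livers, and it was 0.75 for Xbp1 and 0.56 for Edem1. Within the 8 Y-expressing livers r was 0.96 for Manf and 0.95 for Creld2, and within the 7 Xist-high livers 0.97 and 0.98. Taken as deviations from the group means, r exceeded 0.5 for 25 of 32 members, against 1844 of 13839 genes. For Canx, at 0.37 over all livers, r was 0.71 on these deviations and 0.68 without the 2 farthest livers. Its r was 0.16 within the Y-expressing and 0.65 within the Xist-high livers. The summed acinar markers stood at 22.9 and 5.24 FPKM in the 2 farthest livers and the summed B and plasma cell markers at 133.9 and 57.6 FPKM, where 57.6 was the lowest of all livers. The summed Kupffer cell markers were 79.2 and 45.4 FPKM there, and 45.4 was again the lowest. The part of cell composition in the shared variation was not tested.

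**Figure D5:**
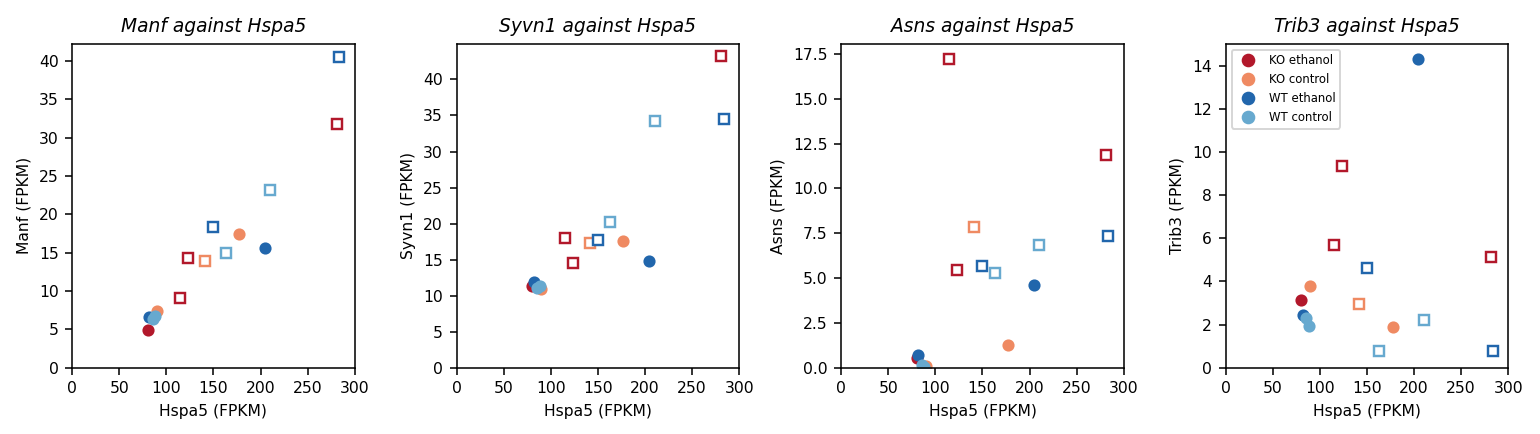
Level of Manf, Syvn1, Asns and Trib3 (FPKM, vertical axes) against Hspa5 (FPKM, horizontal axes) in 15 livers coloured by group, with circles for Xist-high and squares for Y-expressing livers. Manf and Syvn1 follow Hspa5 in all groups (r = 0.97 and 0.90 on log2 values), Asns separates circles from squares, and Trib3 has an r of -0.011.

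Of the members, Asns separated Xist-high from Y-expressing livers, and Vldlr and Atf5 did so only within each group. The labels give no sex, and these values are a description without a test. Asns was the only one of 33 members (3.03%) whose values did not overlap, against 1.21% of all genes. It ranged from 5.29 to 17.2 FPKM in the 8 Y-expressing livers and from 0.0717 to 4.62 FPKM in the 7 Xist-high livers, and was higher in the Y-expressing livers within each of the 4 groups. Vldlr ranged from 0.189 to 2.73 FPKM in Y-expressing livers and from 2.34 to 6.14 in Xist-high livers. Vldlr and Atf5 were lower in the Y-expressing livers within all 4 groups, without overlap inside any group. With Asns that made 3 of 33 members (9.09%) without overlap inside each group, against 5.87% of all genes, so the count is not read as a trait of the members. Hspa5 had medians of 157 and 88.1 FPKM in Y-expressing and Xist-high livers. In the KO mice, where the ethanol group has 3 Y-expressing livers and the control group 1, a diet effect and this split cannot be fully told apart. With a term for Xist the ethanol difference of Hspa5 in KO mice was -0.29 (SE 0.41), that of Vldlr 0.67 (SE 0.30) and that of Atf5 0.52 (SE 0.23), and Canx passed the test at -0.57 (limma adjusted p = 0.0398).

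Other genes of these pathways were read from 12 lists, of which 186 genes were tested. In KO mice 3 were called higher with ethanol, 3 lower and 180 not (3.23% called, against 4.13% of all genes), and 29 had an unadjusted p under 0.05 (15.6%, against 21.7%). In WT mice 6 were higher, 5 lower and 175 not (5.91% called, against 7.7% of all genes), and 39 had an unadjusted p under 0.05 (21.0%, against 25.8%). These shares lie below those of all genes. Between genotypes 0 were called on either diet (unadjusted p under 0.05 for 3 on the ethanol and 0 on the control diet), and 0 in the interaction (1 unadjusted).

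The largest difference was that of Ddit4, which encodes an inhibitor of mTORC1 and is induced through ATF4 as well as by glucocorticoids. It ranged from 10.9 to 43.3 FPKM in KO ethanol and 0.661 to 1.63 in KO control livers, without overlap, and rose by 3.51 on the log2 scale (limma adjusted p = 0.0134). In WT mice it ranged from 2.17 to 37.4 FPKM in ethanol and 1.30 to 2.92 in control livers, and rose by 2.21 (limma adjusted p = 0.0417). Of 13 genes of transcription and signalling in its list, Vegfa, a growth factor of vessels, fell in WT mice (-0.92, limma adjusted p = 0.0298), and none of the others was called in either genotype.

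Among 13 genes of amino acid synthesis and transport, the same 3 genes were called in both genotypes. The glycine transporter Slc6a9 rose by 1.30 in KO mice (limma adjusted p = 0.0319) and by 1.23 in WT mice (limma adjusted p = 0.0206). The alanine transaminase Gpt2 rose by 1.40 and 1.37 (limma adjusted p = 0.0474 and 0.0284). Cbs, the first enzyme from homocysteine to cysteine, fell, at -0.76 in KO and -0.73 in WT mice (limma adjusted p = 0.0388 and 0.0231).

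Of 28 other ER folding factors, the disulfide isomerase P4hb rose in WT mice (0.65, limma adjusted p = 0.0413) and the glucosidase Mogs fell there (-0.45, 0.0347), while the ER peroxiredoxin Prdx4 fell in KO mice (-0.60, 0.0374). Of 20 other degradation factors, the ubiquitin-conjugating enzyme Ube2g2 rose in WT mice (0.75, limma adjusted p = 0.0419) and the mannosidase Man1b1 fell in KO mice (-0.46, 0.0463). Of 14 eIF2 kinases and eIF2 or eIF2B subunits and their regulators, Eif2b3, a subunit of the factor that recharges eIF2, rose in WT mice (0.97, limma adjusted p = 0.0116). Of 10 death effectors, Bok and Bbc3, both of the BCL2 family, fell in WT mice (-0.53 and -0.88, limma adjusted p = 0.0189 and 0.0458). The lists of translocation and glycosylation (30 genes), ER to Golgi transport (19), tRNA synthetases (20), factors cleaved in the Golgi and their proteases (5), RNAs cut by IRE1 (4) and the mitochondrial unfolded protein response (10) held 0 called genes in either genotype, with unadjusted p under 0.05 for 5, 4, 2, 1, 1 and 2 of them in WT mice and 1, 2, 1, 1, 1 and 1 in KO mice. A call in 1 genotype and not in the other does not show that the genotypes differ, and 0 of these genes were called in the interaction.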

How the data were processed

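RNA of 15 mouse livers was sequenced as total RNA, per the labels' protocols. The authors deposited FPKM per gene and per isoform, made with TopHat, Cufflinks and Cuffdiff, per the submitters' processing notes, which name mm9; versions are not given in the sources used here. Positions in the files were compared with GRCm38 for 41244 symbols: 99.5% overlapped, and for 67.3% both ends matched to 10 bases. Positions from the files are therefore not called mm9. Transcript length was taken as deposited by the authors. Isoform FPKM added up to gene FPKM for all 35 members (tolerance 1% plus 0.01 FPKM).

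Groups follow the sample titles. The labels do not say more of the mice than their group, so p-values reflect only how these libraries vary. The test covered the 13840 genes that reached 1 FPKM in 3 or more libraries. Log2(FPKM + 1) was fitted as 4 group means with limma 3.58.1 in R 4.3.3 (lmFit, eBayes with a trend), and 5 contrasts were taken, 2-sided, with Benjamini-Hochberg adjustment over all tested genes; a gene was called at an adjusted p under 0.05. Adding 1 understates fold changes of low genes. No counts are in the files, so no count model was used. The fit was also run on simulated, independent normal values. Such values meet its assumptions, so that run does not test how the fit suits FPKM. Correlations used 100000 permutations, and isoform shares exact permutation tests. Fragment numbers are approximate, from estimated depth and transcript length. Sequences are RefSeq windows of GRCm38.p6 and a GENCODE transcript. Other steps ran in Python 3.11.15 (scipy 1.17.1, matplotlib 3.10.9, pandas 2.3.3, numpy 2.4.6).

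The members and lists were chosen with earlier results of these data known. Every member is accounted for; values in every liver are given for called members and for Hspa5, Xbp1, Atf4, Ddit3, Trib3 and Asns, and, chosen after their values were seen, for Ern1, Psat1 and Canx. From each other list at most the 3 called genes with the lowest p per contrast are named. Alternatives changed the pseudocount, the filter, the scaling or the spread model, weighted libraries by quality, fitted each comparison on its own groups, added a replicate block, tried the other placement of WT ethanol replicate 4, added a term for Xist, or left out each library in turn. The joint omission of KO control replicate 1 and WT ethanol replicate 4, the Xbp1 isoform shares and the correlations were added after seeing the data.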

Additional observations from a re-analysis of the deposited data

Results flagged for a closer look

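Each member was looked at in each group of 4 livers for a liver far from the other 3, by Dixon's ratio of the gap to the range. Of 99 such tests 6 passed the 95% critical value, where chance alone passes about 1 in 20. In KO ethanol replicate 2, Hsp90b1 stood at 210.4 FPKM (110.0 to 118 in the other 3 KO ethanol livers), Pdia4 at 68.7 (32.8 to 35.7), Xbp1 at 68.5 (36.5 to 40.0) and Sel1l at 24.9 (17.1 to 17.7). In WT ethanol replicate 3, Edem1 stood at 38.2 FPKM, against 23.7 to 25.2 in the other 3 WT ethanol livers. In WT ethanol replicate 2, Nupr1 stood at 5.27 FPKM, against 1.31 to 1.49 in the other 3.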

How the results depend on the processing

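The count of called members in WT mice was 1 in the fit as reported. It was 0 with no filter on low values (Atf6 limma adjusted p = 0.0665) and with libraries rescaled to a common sum (0.0849). With library weights it was 3 (9.09% of members, against 16.2% of all genes). With WT ethanol replicate 4 placed with KO ethanol it was 2 (6.06%, against 13.2%). Without both KO control replicate 1 and WT ethanol replicate 4, an omission chosen after seeing the data, it was 3 (9.09%, against 13.1%). Leaving out single libraries gave 0 to 4, the 4 with Psat1 (12.1%, against 12.9%). In KO mice, where 0 were called, there was 1 with a filter of 1 FPKM in at least 8 libraries, 1 with a common sum, 1 with eBayes without a trend, 6 with library weights (Canx, Atf4, Psat1, Chac1, Asns and Herpud1; 18.2% of members, against 29.9% of all genes), 1 with WT ethanol replicate 4 placed with KO ethanol, and 1 with a term for Xist; leaving out single libraries gave 0 to 1. On the control diet the count between genotypes was 1 with library weights and otherwise 0. The 1 was Nupr1 (3.03% of members, against 4.83% of all genes in that fit). On the ethanol diet and in the interaction the count was 0 under every alternative run.

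Many uncalled differences turned sign under at least 1 alternative: 13 of 33 members in each ethanol comparison, 17 between genotypes on the ethanol diet and 28 on the control diet, and 24 in the interaction. Those of Xbp1, Hspa5 and Ddit3 for ethanol are given in full. For Xbp1 in KO mice (-0.040) the value was 0.087 with median-ratio scaling, 0.048 with quantile normalization, 0.30 with a common sum, 0.088 with library weights, 0.087 with the replicate block, and -0.25 to 0.15 without single libraries (above 0 without KO control replicate 3 or KO ethanol replicate 1, 3 or 4). For Hspa5 in KO mice (0.028) it was -0.11 with WT ethanol replicate 4 placed with KO ethanol, -0.29 with a term for Xist, and -0.33 to 0.27 without single libraries (below 0 without KO ethanol replicate 2 or KO control replicate 2). For Ddit3 in KO mice (0.024) it was -0.063 with that placement and -0.18 to 0.19 without single libraries (below 0 without KO control replicate 2 or 3 or KO ethanol replicate 1 or 2). For Ddit3 in WT mice (-0.17) it was 0.10 with library weights and -0.59 to 0.051 without single libraries (above 0 without WT control replicate 4 or WT ethanol replicate 1). The cause was not tested.

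Of 21 pairs of libraries with the same replicate number across groups, 7 had a correlation of their deviations over 0.1, with a range of -0.33 to 0.44. Whether they deviated together more than pairs with different numbers was not tested. With the replicate block the count of called members was 1 in WT mice, as Atf6 kept its call (adjusted p = 0.0305), and 0 in every other comparison, so the block changed no other call. Over all alternatives the number of genes called among all tested ran from 382 to 2248 in WT mice (1066 as reported), from 96 to 4140 in KO mice (571), from 1 to 669 between genotypes on the control diet (25), from 0 to 22 on the ethanol diet (14) and from 0 to 43 in the interaction (0). Groups of 3 or 4 livers limit what could be called: the standard errors of the chaperones' ethanol differences ran from 0.13 (Canx in WT mice) to 0.76 (Sdf2l1 in KO mice) on the log2 scale. A common sum also moved the median of all genes, to -0.12 in WT and 0.17 in KO mice, and FPKM without counts carry no error of their own.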
